A study of Mus musculus with 16 samples.

Results

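The genes described here are the amino acid carriers of 7 solute carrier families in mouse kidney cortex: Slc1, the Slc3 heavy chains, and Slc6, Slc7, Slc36, Slc38 and Slc43. Protein-coding genes were taken by symbol, which gave 64 of the 55414 genes of the count table. Of these, 41 reached a mean of at least 1 count per 1e6 counts (CPM) over the 16 libraries and are described singly, and 43 had enough counts to be tested. The symbol pattern also takes in Slc7a6os, a gene named for its place on the strand opposite Slc7a6 and not known as a carrier. It is counted among the 64, and its exons share no bases with those of Slc7a6.

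All mice were male wild-type C57BL/6J, the standard inbred laboratory strain, and carried no transgene or deletion per the labels. The 4 groups had 4 libraries each: sedentary mice, and mice made to run on a treadmill for 40 minutes at 70% of capacity over 1 day (labelled 24 h), 1 week or 2 weeks. Polyadenylated RNA from pieces of cortex frozen at death was sequenced with a strand-marking kit. Ages, the hour of death and the time since the last run were not given in the sources used here. From the labels it is not clear if the 24 h mice ran within a day or were killed 24 h after a single run. It is also not clear if each library came from its own animal, and p-values therefore reflect the spread between libraries, which may be technical.

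Amino acids filtered at the glomerulus are taken back almost completely in the proximal tubule. Carriers in the luminal brush border, driven mainly by sodium or by exchange, bring them into the cell, and exchangers and uniporters in the basolateral membrane pass them on to the blood. Several Slc7 proteins reach the membrane only when bound to a heavy chain, Slc3a1 (rBAT) on the luminal side or Slc3a2 (the heavy chain of the CD98 complex) on the basolateral side. Loss of Slc3a1 or Slc7a9 causes cystinuria, loss of Slc6a19 Hartnup disorder, and loss of Slc7a7 lysinuric protein intolerance.

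Library totals ranged from 39766260 to 66852397 counts, and the 64 genes together took 0.578% of all counts on average (0.498% to 0.646% per library). The cortex label was checked with markers: Slc34a1, the proximal phosphate carrier, lay between 5905 and 8754 CPM in every library. Transcripts of the medulla were present too, since its urea carrier Slc14a2 lay between 0.533 and 58.2 CPM. Replicate 1 of the 2 week group held transcripts of fat cells, with 4 markers (Adipoq, Plin1, Cidec, Ucp1) summing to 8.34 CPM against at most 1.05 CPM in the other 15 libraries. Sample titles carry an unexplained letter, the same in all exercised libraries and another in all sedentary ones, and exercise and its meaning cannot be told apart.

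The luminal cystine system stood highest. Levels of different genes are compared here as TMM-scaled CPM per kilobase of merged exon, averaged over the 16 libraries unless a group is named. Slc7a13, the light chain that carries aspartate, glutamate and cystine in the late proximal tubule, led with 451 CPM per kb. The heavy chain Slc3a1 followed with 429, and Slc6a18, a luminal carrier of glycine and alanine, with 185. These 3 genes stood apart from all others, the next being the basolateral heavy chain Slc3a2 with 68.8. Among sedentary libraries, Slc7a13 (499 ± 59.6 CPM per kb, SD, n = 4) and Slc3a1 (449 ± 36.3) had overlapping ranges, from 435 to 563 and from 426 to 503.

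**Figure D1:**
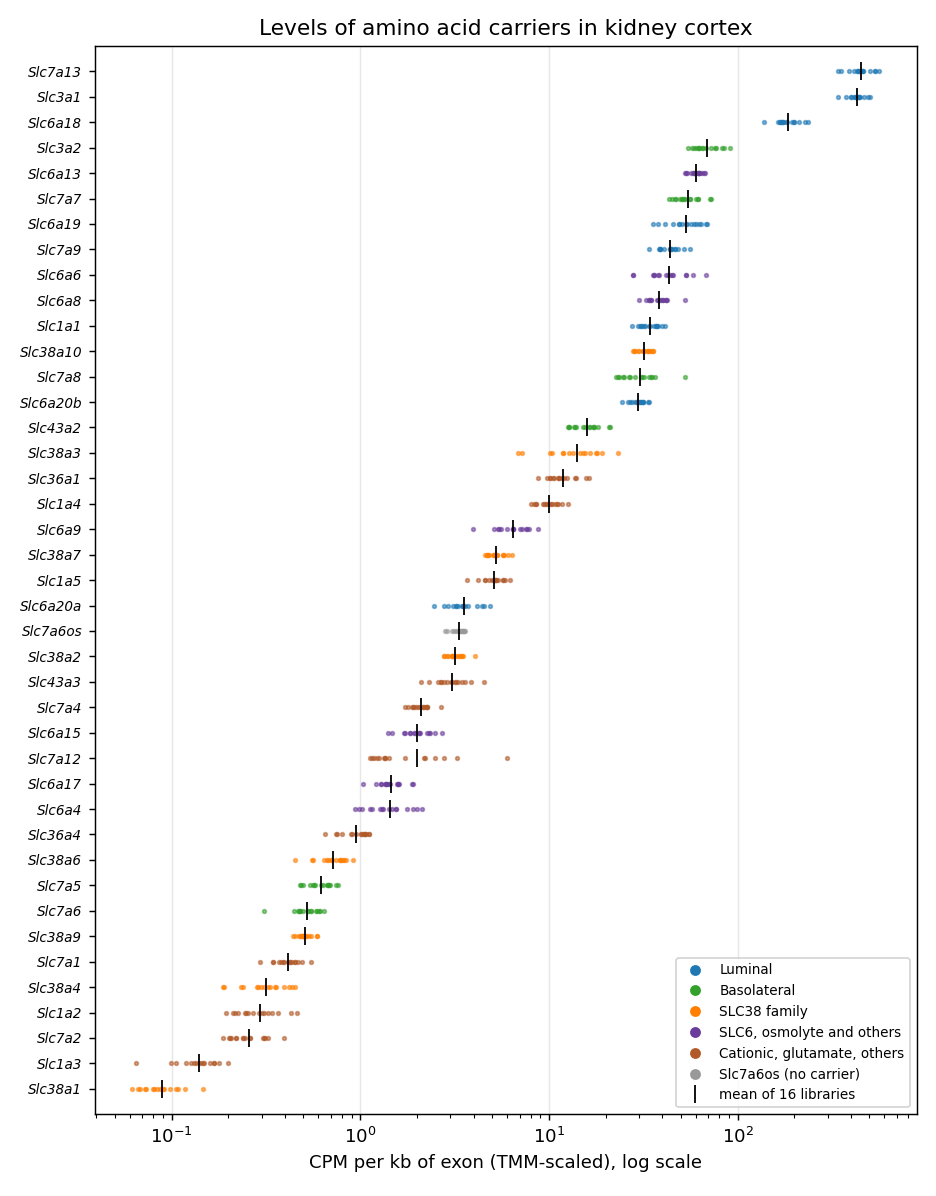
Level of the 41 genes of at least 1 CPM, as TMM-scaled CPM per kilobase of exon on a log axis. Each dot is 1 of the 16 libraries, coloured by role, and the black tick is their mean. Levels run from 451 for Slc7a13 to 0.0895 for Slc38a1, with luminal carriers at the top.

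The other luminal carriers were lower. Slc6a19, the main sodium-driven carrier of neutral amino acids, reached 53.5 CPM per kb, and Slc7a9, the cystine and dibasic amino acid exchanger bound to Slc3a1, reached 43.7. Slc1a1, which takes up glutamate and aspartate, had 34.3. The imino acid carrier family held an abundant member, Slc6a20b at 29.8, and a scarce one, Slc6a20a at 3.55. The low-capacity proline and glycine carrier Slc36a2, the remaining luminal gene, had 32 counts in all libraries together.

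On the basolateral side Slc3a2 and its light chains formed a middle tier. Slc7a7, which exchanges dibasic for neutral amino acids, had 54.8 CPM per kb and Slc7a8, a broad neutral exchanger, 30.5. Slc43a2, a uniporter for branched-chain and aromatic amino acids, had 15.95. The isoforms known from dividing or other cells were scarce: Slc7a5 had 0.616 and Slc7a6 0.522. Slc43a1 stayed below the limit of 1 CPM with a mean of 0.619 CPM.

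The heavy chains can be set against the light chains that bind them, library by library. In sedentary cortex Slc7a9 and Slc7a13 together had 547 ± 60.0 CPM per kb against 449 ± 36.3 for Slc3a1, a light to heavy ratio of 1.22 (1.13 to 1.39). The ratio averaged 1.18 at 24 h, 1.15 at 1 week and 1.077 at 2 weeks. The last group held the lowest library of all, replicate 4 with 0.779, and its other libraries lay between 1.10 and 1.25. For Slc3a2, with 6 light chains summed (Slc7a5, Slc7a6, Slc7a7, Slc7a8, Slc7a10 and Slc7a11), the ratio was 1.31 in sedentary cortex, 1.15 at 24 h, 1.25 at 1 week and 1.33 at 2 weeks. In every group the transcripts of each heavy chain and of its light chains summed were thus present in like amounts per length, and the ranges of the groups overlapped. On the luminal side Slc7a13 made up most of the sum. In sedentary cortex it had 499 CPM per kb, and Slc7a9 alone had 48.35.

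Among carriers of osmolytes and transmitters, 3 Slc6 members were abundant. Slc6a13, a GABA and taurine carrier, had 60.2 CPM per kb, the taurine carrier Slc6a6 43.2 and the creatine carrier Slc6a8 38.3, while the glycine carrier Slc6a9 had 6.47. The neutral amino acid carriers Slc6a15 (2.01) and Slc6a17 (1.46), both best known from neurons, and the serotonin carrier Slc6a4 (1.44) were low. The betaine carrier Slc6a12, a medullary gene induced by high tonicity, was the nearest gene outside the limit with 0.759 CPM, and the glial glutamate carrier Slc1a3 the nearest inside it with 1.196 CPM, in CPM without TMM scaling.

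The Slc38 family, sodium-coupled carriers of glutamine and related amino acids, spread over more than 2 orders of magnitude. Slc38a10, an intracellular member, had 32.1 CPM per kb and Slc38a3, the basolateral glutamine carrier that feeds ammonia production, 14.04. The lysosomal glutamine exporter Slc38a7 had 5.28, and Slc38a2, the carrier induced when amino acids run short, 3.20. Slc38a6 (0.716), the lysosomal arginine sensor Slc38a9 (0.507), Slc38a4 (0.319) and Slc38a1 (0.0895) were lower.

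The remaining genes of at least 1 CPM were the lysosomal proton-coupled carrier Slc36a1 (11.9 CPM per kb), the alanine, serine and cysteine carrier Slc1a4 (9.99), the glutamine exchanger Slc1a5 (5.11), the purine nucleobase carrier Slc43a3 (3.08), Slc7a4 (2.09), the neutral carrier Slc7a12 (2.001) and Slc36a4 (0.952). The cationic carriers Slc7a1 (0.414) and Slc7a2 (0.258) and the glutamate carriers Slc1a2 (0.294) and Slc1a3 (0.140) were lower still, and Slc7a6os had 3.33. Of the 23 genes below 1 CPM, the highest 4 were Slc6a12, Slc43a1, Slc6a14 (0.149 CPM) and Slc7a11 (0.0944 CPM). Slc6a11, Slc36a3 and Slc7a14 had no count in any library, which allows up to 0.00391 CPM (3 counts over all libraries, counting error only).

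The levels spread about as much as those of all genes. The median biological coefficient of variation of the 41 genes was 14.8%, beside 14.1% for all 16126 genes tested. It was lowest for Slc38a2 (8.58%), Slc7a6os (8.82%) and Slc6a20b (9.26%), and highest for Slc7a12 (33.5%), Slc38a3 (25.0%) and Slc38a4 (24.9%). In 29 of the 41 genes the highest group mean was less than 1.25 times the lowest. It was at least 1.5 times in 3 genes: Slc7a12 (2.57), Slc38a3 (1.55) and Slc1a2 (1.55). These ratios were not computed for all genes.

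**Figure D2:**
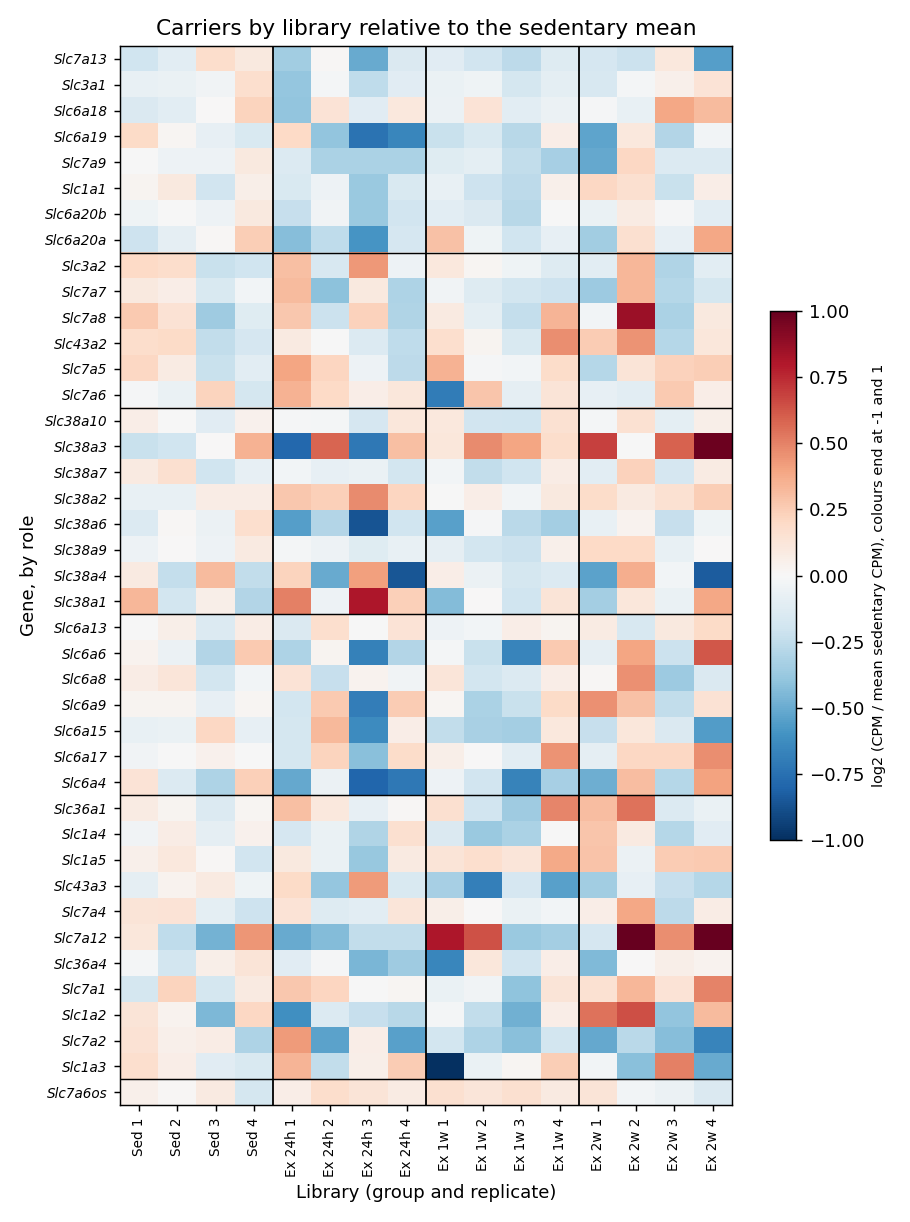
The 41 genes (rows, by role) in the 16 libraries (columns), as log2 of CPM over the sedentary mean of the gene. Colours end at -1 and 1, and 2 libraries of Slc7a12 at 2 weeks and 1 of Slc1a3 at 1 week lie beyond them. The block of luminal genes is mostly blue at 24 h.

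No member passed an adjusted p under 0.05 in any comparison by edgeR's quasi-likelihood test (Benjamini-Hochberg adjustment over 16126 genes, 4 libraries a group). The share of all genes that passed was 0.0% for 24 h, 1 week and 2 weeks against sedentary mice, for 1 week against 24 h and for 2 weeks against 1 week. It was 0.0124% (2 genes, Asns and Atf5) for 2 weeks against 24 h and over all 4 groups. At an unadjusted p under 0.05, members numbered 6 of 43 at 24 h, 1 at 1 week and 3 at 2 weeks, each against sedentary mice. The shares of all genes were 8.92%, 6.05% and 7.26%, so that the 24 h count lay somewhat above the background and the others below or near it. DESeq2 called 1 member, Slc38a2, at 24 h against sedentary mice (0.477% of all genes) and over all 4 groups (0.992%). It called 0 members at 1 and 2 weeks against sedentary mice (0.0868% and 0.18% of all genes), at 1 and 2 weeks against 24 h (0.341% and 0.229%) and between 1 and 2 weeks (0.0248%). Voom with quality weights in limma called 0 throughout. The standard error of a member's log2 fold change had a median of 0.15, so that small differences in level could not be resolved with 4 libraries a group. Groups that did not overlap at all were counted as well. They numbered 3 of 43 members at 24 h (7.21% of all genes), 3 at 1 week (4.22%) and 1 at 2 weeks (4.91%), each against sedentary mice. They numbered 2 between 24 h and 1 week (2.92% of all genes), 1 between 24 h and 2 weeks (3.26%) and 1 between 1 and 2 weeks (1.59%). The members' shares thus lay near those of all genes. Over all 4 groups together, 5 of 43 members had an unadjusted p under 0.05 (8.73% of all genes): Slc38a2, Slc7a12, Slc43a3, Slc38a6 and Slc1a2, with adjusted p from 0.342 to 0.503 by edgeR. All comparisons with sedentary mice share the same 4 control libraries.

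At 24 h all 8 luminal genes tested lay below their sedentary level. The count of luminal genes below 0 was added after the data were seen. The median log2 fold change was -0.22, beside -0.01 over all genes. At an unadjusted p under 0.05, 3 of the 8 were lower, where 4.43% of all genes were. Of all genes, 51.0% lay below 0 in that comparison. At 1 week 7 of the 8 lay below (median -0.12; 48.9% of all genes) and at 2 weeks 4 of the 8 (median -0.01; 47.9%). Summed over the 9 luminal genes, the sedentary libraries lay between 3671 and 4244 CPM and those of 24 h between 3079 and 3857, so the groups overlapped. The 6 proximal tubule markers (Lrp2, Cubn, Slc34a1, Slc5a2, Aqp1, Slc22a6; none at 0) lay below the sedentary level at 24 h too, 6 of 6 with a median of -0.10. Their sum was 10860 to 13310 CPM in sedentary and 10700 to 12450 at 24 h, and their part in the luminal counts was not tested. Markers of the early proximal tubule (Slc5a12, Prodh2 and Slc5a2, which is also among those 6) lay below the sedentary level too. They did so in 3 of 3 (median -0.125), and 0 had an unadjusted p under 0.05. They summed to 620 to 784 CPM in sedentary and 526 to 708 at 24 h, and their part was not tested. Markers of the late proximal tubule (Cyp7b1, Atp11a, Slc22a19, Slc22a13; none at 0) did not lie to that side, with 3 of 4 above the sedentary level at 24 h (median 0.06), and summed to 1419 to 1758 CPM in sedentary and 1355 to 1895 at 24 h. The fibroblast markers Col1a1, Col1a2 and Pdgfra were above it as well, 3 of 3, and 2 had an unadjusted p under 0.05. Of all genes, 4.49% were higher at that level. The fibroblast markers summed to 52.4 to 71.8 CPM in sedentary and 62.9 to 99.1 at 24 h, and their part was not tested either. Fibroblasts were not alone in this. All markers of intercalated cells (4), the distal convoluted tubule (3), erythroid cells (3) and podocytes (2) lay above the sedentary level too. Of 5 endothelial markers, 4 lay below it. In bulk tissue, fewer cells of a type and less RNA per cell cannot be told apart.

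Slc7a9 (chr7:35448796-35466036, plus strand, GRCm38), the cystinuria exchanger, was the luminal gene with the smallest p. It measured 129, 125, 125 and 139 CPM in the 4 sedentary libraries and 117, 104, 104 and 104 at 24 h. Every 24 h library lay below every sedentary one, with replicate 1 above the others. The log2 fold change was -0.27 ± 0.11 (SE, adjusted p = 0.489, edgeR). At 1 week the libraries read 119, 121, 109 and 103 CPM, again all below the sedentary ones (-0.20 ± 0.11, adjusted p = 0.902). At 2 weeks Slc7a9 read 90.7, 149, 118 and 117 CPM, which spanned the sedentary range (-0.12 ± 0.11, adjusted p = 0.820).

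Slc3a1 (chr17:85028376-85064236, plus strand), its heavy chain, read 968, 974, 996 and 1143 CPM in sedentary cortex and 778, 1006, 855 and 942 at 24 h. Only 24 h replicate 2 reached into the sedentary range. The log2 fold change was -0.19 ± 0.09 at 24 h (adjusted p = 0.574), -0.09 ± 0.09 at 1 week (0.937) and 0.01 ± 0.09 at 2 weeks (0.993), all by edgeR.

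Slc6a19 (chr13:73679745-73704865, minus strand) read 341, 302, 283 and 269 CPM in sedentary cortex and 344, 227, 180 and 191 at 24 h. Replicates 2, 3 and 4 of 24 h lay below all sedentary libraries, and replicate 1 matched the highest of them. The log2 fold change was -0.35 ± 0.17 at 24 h (adjusted p = 0.571), -0.14 ± 0.17 at 1 week (0.939) and -0.16 ± 0.17 at 2 weeks (0.842), by edgeR.

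The imino acid carriers were lower at 24 h. Slc6a20b read 262, 270, 261 and 289 CPM in sedentary cortex and 230, 263, 209 and 236 at 24 h, with replicate 2 alone inside the sedentary range (-0.20 ± 0.09, adjusted p = 0.495, edgeR). Slc6a20a read 13.1, 14.2, 15.3 and 18 CPM in sedentary cortex and 11.3, 12.7, 10.1 and 13.5 at 24 h. Here replicate 4 overlapped (-0.35 ± 0.15, adjusted p = 0.508, edgeR). The pair lie side by side on chromosome 9 and share sequence, 15.3% of the 50-base words of Slc6a20a and 7.76% of those of Slc6a20b, so reads could pass between them depending on how multiple matches were counted.

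**Figure D3:**
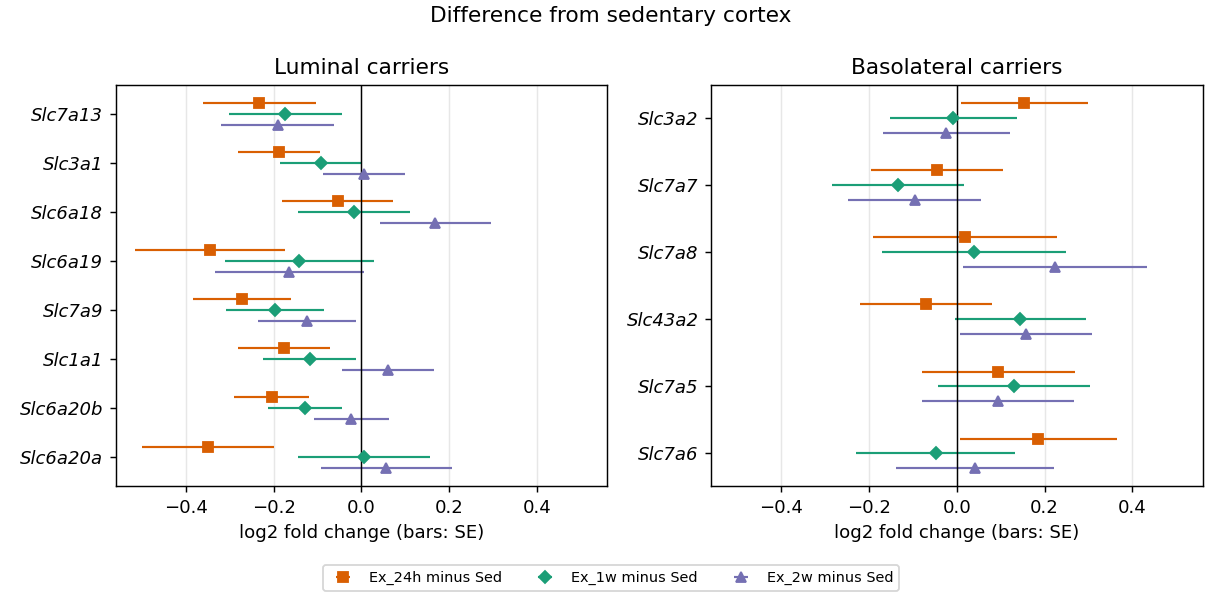
Log2 fold change against sedentary cortex with its SE, for 8 luminal genes and for the 6 basolateral genes of at least 1 CPM, at 24 h, 1 week and 2 weeks. All 8 luminal squares (24 h) lie left of 0, and the basolateral ones lie on both sides.

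Basolateral genes did not lie to one side. At 24 h 4 of 7 tested were above and 3 below the sedentary level (median 0.02), and the counts were again 4 and 3 at 1 week and 2 weeks. Slc3a2 (chr19:8706882-8723369, minus strand) read 272, 268, 203 and 207 CPM in sedentary cortex and 293, 213, 321 and 229 at 24 h. Replicates 1 and 3 of 24 h lay above the sedentary libraries and the other two among them. Its log2 fold changes were 0.15 ± 0.14 at 24 h (adjusted p = 0.806), -0.01 ± 0.14 at 1 week (0.999) and -0.02 ± 0.14 at 2 weeks (0.981), by edgeR.

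Of the light chains that pair with Slc3a2, the abundant ones are Slc7a7 and Slc7a8. Slc7a8 (chr14:54722209-54781946, minus strand) read 174, 160, 113 and 134 CPM in sedentary cortex and 175, 125, 170 and 118 at 24 h. Slc7a7 (chr14:54369442-54417780, minus strand) read 204, 200, 172 and 186 in sedentary cortex and 237, 143, 204 and 154 at 24 h. In Slc3a2, Slc7a7 and Slc7a8 alike, replicates 1 and 2 were the higher sedentary libraries, and replicates 1 and 3 the higher ones at 24 h. At 2 weeks replicate 2 was the highest for these 3 genes, with 299 CPM for Slc3a2, 239 for Slc7a7 and 263 for Slc7a8. At 1 week Slc7a8 departed from this, being highest in replicate 4 (183 CPM), where Slc3a2 (218) and Slc7a7 (165) were lowest. The scarce light chain Slc7a6 was highest among sedentary libraries in replicate 3 (2.70 CPM), where Slc3a2 was lowest. The 3 markers of the early proximal tubule summed to 784, 763, 639 and 620 CPM in sedentary cortex. Slc5a2 made up most of this, with 591, 574, 448 and 441 CPM. Prodh2 ranked the sedentary libraries in the same order, and Slc5a12 did not, being highest in replicate 3 (111 CPM). At 24 h the 3 markers summed to 708, 526, 702 and 575 CPM. Their sum was lowest at 1 week in replicate 4 (654 CPM) and highest at 2 weeks in replicate 2 (819 CPM). In that 1 week replicate 4 Slc5a12 was highest (101 CPM), while Slc5a2 (483) and Prodh2 (69.5) were lowest. The part of these 3 markers in the values of Slc3a2, Slc7a7 and Slc7a8 was not tested.

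Against sedentary mice Slc7a8 had log2 fold changes of 0.02 ± 0.21 at 24 h (adjusted p = 0.986), 0.04 ± 0.21 at 1 week (0.995) and 0.22 ± 0.21 at 2 weeks (0.828), by edgeR. Slc7a7 had -0.05 ± 0.15 (0.951), -0.14 ± 0.15 (0.939) and -0.10 ± 0.15 (0.907). These are within the spread of the libraries.

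Slc38a2 (chr15:96687392-96699730, minus strand), which brings small neutral amino acids into the cell with sodium, was the member with the smallest p at 24 h. It read 24.5, 24.5, 27.1 and 27.2 CPM in sedentary cortex, 31.2, 30.4, 35.8 and 30.0 at 24 h, 25.8, 27.0, 25.4 and 27.7 at 1 week, and 29.3, 27.5, 28.6 and 30.6 at 2 weeks. All 24 h libraries lay above all sedentary and all 1 week libraries, and those of 2 weeks lay above the sedentary ones. The log2 fold change at 24 h was 0.30 ± 0.08 (unadjusted p = 0.0013, adjusted p = 0.228, edgeR), and DESeq2 gave 0.31 with an adjusted p of 0.0291. From 24 h to 1 week it was -0.27 ± 0.08 (adjusted p = 0.355, edgeR). Members numbered 6 of 43 at an unadjusted p under 0.05 in that last comparison, 3 in each direction, where 7.15% of all genes did.

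Slc38a2 belongs to the carriers known as targets of ATF4, the transcription factor that is made when amino acids are short or the endoplasmic reticulum is stressed. Of the 7 such carriers tested (Slc7a5, Slc3a2, Slc7a1, Slc38a2, Slc1a4, Slc1a5 and Slc6a9), 4 lay above the sedentary level at 24 h and 3 below (median 0.10), and Slc38a2 alone had an unadjusted p under 0.05. Summed with Slc7a11 and Slc7a3, they lay between 326 and 398 CPM in sedentary and between 349 and 432 at 24 h. Slc3a2 alone made up most of this sum, with a mean of 237.5 of 363.8 CPM in sedentary and 264.0 of 393.0 at 24 h. Of 20 tested genes of the ATF4 response outside the carriers, 16 lay above the sedentary level at 24 h (median 0.30), and 9 were higher and 1 lower at an unadjusted p under 0.05, where 4.49% and 4.43% of all genes were.

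Asns, the asparagine synthetase gene and a classical target of ATF4, moved most clearly among them. It read 5.91, 5.65, 4.79 and 3.90 CPM in sedentary cortex and 10.5, 9.47, 11.7 and 10.2 at 24 h, with no overlap (log2 1.05 ± 0.17, adjusted p = 0.0621, edgeR). At 2 weeks it was lower than at 24 h (-1.31 ± 0.17, adjusted p = 0.00616, edgeR). Atf5 and Mthfd2 were also higher at 24 h with no overlap (0.55 ± 0.09 and 0.71 ± 0.14, adjusted p = 0.0621 and 0.106). The list was chosen with earlier results of these data known.

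**Figure D4:**
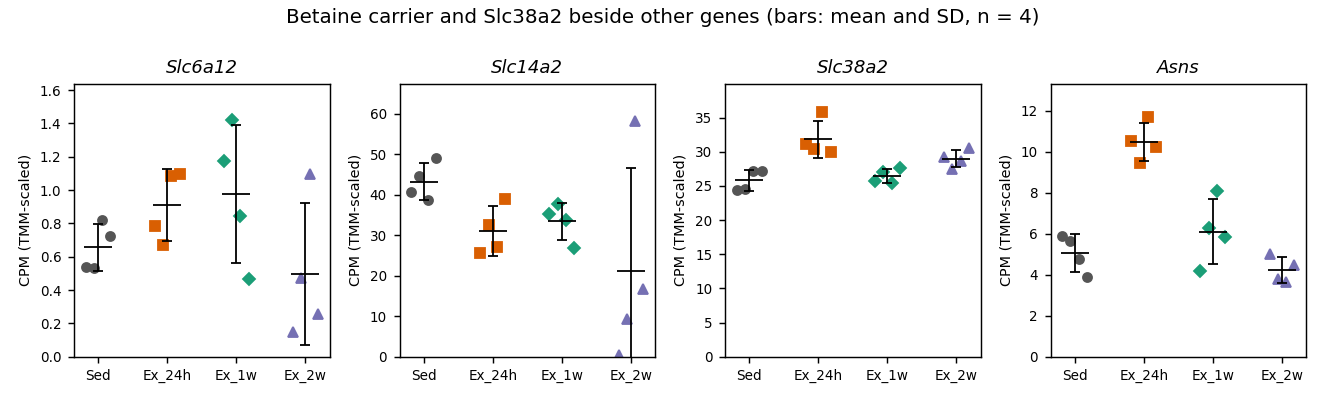
CPM of Slc6a12, the medullary urea carrier Slc14a2, Slc38a2 and Asns in each library. Points are libraries, and black bars are the mean and SD of 4. Slc38a2 and Asns are both highest at 24 h, and at 2 weeks Slc6a12 and Slc14a2 are both lowest in replicate 1 and highest in replicate 3.

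The promoters of the carriers were searched on both strands for TGATGNAA, the core letters of the C/EBP-ATF response element, in the 250 bases before and 50 after each RefSeq start site (GRCm38.p6). Of 32851 promoters of all genes, 3.97% held it. Of 67 promoters of 46 members found in the table, 5 held it, in 4 genes, which is 7.46%. Promoters were counted by start site, and those of the same gene can overlap and share a match. The windows below are shown because they place the same letters in carriers beside those of Asns. Capitals mark the matches (TTGCATCA is TGATGCAA on the other strand), each sequence is printed along its gene's strand, and all but Slc6a21 are given:
Asns (chr6:7693199-7693258, minus strand): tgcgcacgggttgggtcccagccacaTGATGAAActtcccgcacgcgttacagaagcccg
Slc7a11 (chr3:50443627-50443705, minus strand): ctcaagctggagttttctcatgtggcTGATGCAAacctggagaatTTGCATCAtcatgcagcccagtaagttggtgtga
Slc1a4 (chr11:20332684-20332743, minus strand): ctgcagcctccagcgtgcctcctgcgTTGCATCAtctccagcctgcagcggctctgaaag
Slc7a7 (chr14:54417912-54417971, minus strand): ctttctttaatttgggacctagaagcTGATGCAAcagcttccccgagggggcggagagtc
Slc7a7 (chr14:54418052-54418111, minus strand): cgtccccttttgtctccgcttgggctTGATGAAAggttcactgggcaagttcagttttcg

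A match is a description of letters and not a site of binding. Both windows of Slc7a7 lie in the same promoter, with matches that start 1 and 141 bases before its start site. Slc7a11, the cystine and glutamate exchanger, holds 2 matches that start 66 and 47 bases before its start site, and had 71 counts in all libraries together. Slc1a4 read 40.1, 43.2, 38.5 and 42.3 CPM in sedentary cortex and 36.6, 39.3, 33.4 and 45.8 at 24 h, with overlap. The promoter window of Slc38a2 held none of these letters. Introns and other sequence outside the windows were not searched, so this says nothing of an element elsewhere in the gene.

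Of the other members at 24 h, Slc38a6, a little-studied relative of Slc38a2, was lower. It read 5.79, 6.41, 6.12 and 7.15 CPM in sedentary cortex and 4.33, 5.18, 3.497 and 5.55 at 24 h, with no overlap (log2 -0.46 ± 0.14, adjusted p = 0.330, edgeR). Of its 50-base words, 22.8% also occur in transcripts of other genes. Slc6a4, the serotonin carrier, read 8.07, 6.67, 5.90 and 8.64 CPM in sedentary cortex and 5.14, 7.04, 4.24 and 4.45 at 24 h. Replicate 2 alone lay inside the sedentary range (-0.49 ± 0.21, adjusted p = 0.496, edgeR).

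**Figure D5:**
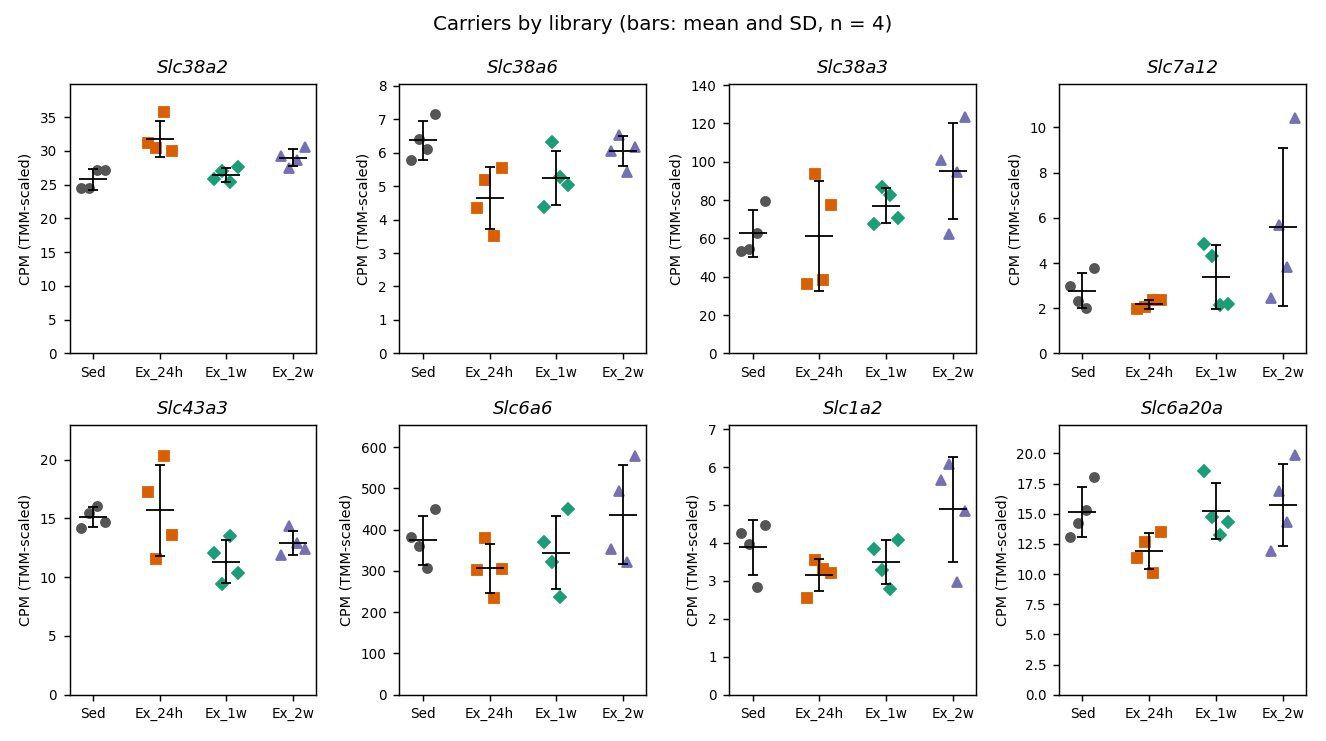
CPM in each library for 8 members with an unadjusted p under 0.05 in at least 1 comparison. Points are libraries, and black bars are the mean and SD of 4. Slc38a2 at 24 h and Slc43a3 at 1 week lie apart from the sedentary libraries, and Slc38a3 splits at 24 h.

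At 1 week Slc43a3, which moves purine nucleobases rather than amino acids, was the member with the smallest p against sedentary mice. It read 14.2, 15.5, 16.1 and 14.7 CPM in sedentary cortex, 17.3, 11.6, 20.3 and 13.6 at 24 h, 12.02, 9.395, 13.5 and 10.4 at 1 week, and 11.9, 14.3, 12.9 and 12.4 at 2 weeks. All 1 week libraries lay below all sedentary ones (-0.42 ± 0.15, adjusted p = 0.658, edgeR), and the difference from 24 h was -0.47 ± 0.15 (adjusted p = 0.362). The 5 endothelial markers (Pecam1, Kdr, Emcn, Cdh5, Ehd3, with none at 0) were lower at 1 week as well, 5 of 5. They summed to 123 to 148 CPM against 159 to 193 in sedentary cortex. Macrophage markers (Adgre1, Cd68, Csf1r, C1qa) were lower in 4 of 4 (median -0.335) and fibroblast markers in 3 of 3 (median -0.273). So were 4 of 4 lymphocyte markers (median -0.449), all with group means under 1 CPM, and 2 of 3 smooth muscle markers. Of all genes, 48.9% were lower. The part of any of these markers in the Slc43a3 difference was not tested.

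Slc1a5, the glutamine exchanger, read 20.7, 21.5, 20.2 and 17.6 CPM in sedentary cortex, 21.4, 19.2, 15.4 and 21.3 at 24 h, and 21.9, 22.5, 21.8 and 25.98 at 1 week. The 1 week libraries lay above all others named here (0.26 ± 0.11 against 24 h, adjusted p = 0.629, edgeR). Against 24 h, Slc6a20a was higher at 1 week by 0.36 ± 0.15, Slc43a1 was higher by 0.58 ± 0.26 and Slc38a1 differed by -0.52 ± 0.22, with adjusted p = 0.6, 0.631 and 0.575 and overlapping groups.

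At 2 weeks Slc7a12 (chr3:14480697-14505830, plus strand), a carrier of neutral amino acids, showed the largest fold among the members of at least 1 CPM. It read 2.998, 2.34, 2.003 and 3.78 CPM in sedentary cortex, 1.96, 2.06, 2.35 and 2.35 at 24 h, 4.86, 4.33, 2.14 and 2.20 at 1 week, and 2.47, 5.66, 3.82 and 10.4 at 2 weeks. All 2 week libraries lay above all 24 h libraries, and replicate 1 lay inside the sedentary range. The log2 fold change was 1.01 ± 0.35 against sedentary (adjusted p = 0.495, edgeR) and 1.36 ± 0.35 against 24 h (adjusted p = 0.322). Against 1 week it was 0.73 ± 0.34 (adjusted p = 0.868). Replicate 4 sets much of this size, and without it the difference from sedentary was 0.53 (unadjusted p = 0.0939, edgeR).

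Slc38a3 (chr9:107650634-107669530, minus strand), the glutamine carrier of the late proximal tubule, read 53.5, 54.6, 62.6 and 79.8 CPM in sedentary cortex, 67.7, 86.9, 82.5 and 70.9 at 1 week, and 101, 62.6, 94.5 and 123 at 2 weeks. Replicates 1, 3 and 4 of 2 weeks lay above all sedentary libraries and replicate 2 within them (0.60 ± 0.27, adjusted p = 0.654, edgeR). At 24 h it split, with 36.3 and 38.1 CPM in replicates 1 and 3 and 93.8 and 77.3 in replicates 2 and 4. The same replicates 1 and 3 were the higher ones in 2 podocyte markers (Nphs1 and Synpo, neither at 0), which summed to 62.0 and 63.1 CPM against 41.7 and 46.7 in replicates 2 and 4 and 40.8 to 55.8 in sedentary cortex. Podocytes were not alone in this. Early proximal (708 and 702 CPM against 526 and 575), endothelial (183 and 204.5 against 149.6 and 135.6) and fibroblast sums (99.1 and 99.1 against 62.9 and 82.2) split likewise. The 6 proximal tubule markers split the other way (11280 and 10700 against 12450 and 11710). The 4 markers of the late proximal tubule summed to 1474 and 1355 CPM in replicates 1 and 3 against 1895 and 1694. Of these 4, Atp11a, singled out after its values were seen, took most of that gap, with 877 and 721 CPM against 1264 and 1055. Slc22a19 went the other way, with 189 and 192 CPM against 176 and 178. Cyp7b1 (294 and 292 against 304 and 310) and Slc22a13 (114 and 150 against 152 and 151) differed by less. The part of these in the Slc38a3 values was not tested.

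Slc7a2, which carries arginine and other cationic amino acids, read 2.98, 2.80, 2.85 and 2.18 CPM in sedentary cortex and 1.89, 2.24, 2.01 and 1.71 at 2 weeks. Sedentary replicate 4 alone overlapped the 2 week libraries (-0.46 ± 0.20, adjusted p = 0.636, edgeR). The related carrier Slc7a1 read 4.28, 4.39, 3.40 and 4.90 CPM at 1 week and 4.99, 5.65, 4.92 and 6.34 at 2 weeks, all above the 1 week libraries (0.37 ± 0.14, adjusted p = 0.868, edgeR). Members with an unadjusted p under 0.05 between 1 and 2 weeks numbered 4 of 43, where 4.58% of all genes did.

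Between 24 h and 2 weeks more members differed at the unadjusted level than in any other comparison of groups in pairs, and all were higher at 2 weeks. They numbered 10 of 43, where 9.61% of all genes passed. All 10 were higher and 0 lower, beside 5.29% of all genes higher and 4.32% lower. All 8 luminal genes lay above their 24 h level, as did 52.2% of all genes (median 0.19, beside 0.01 for all genes), and so did 6 of 6 proximal tubule markers (median 0.21), whose sum at 2 weeks was 11200 to 15200 CPM. The early proximal markers lay above as well, 3 of 3 (median 0.148). Of the 4 late proximal markers 2 lay above and 2 below (median -0.11), and Cyp7b1 was below without overlap (-0.51 ± 0.13, adjusted p = 0.298, edgeR). The 3 fibroblast markers all lay below, each at an unadjusted p under 0.05. The part of the markers in the luminal count was not tested. Without 24 h replicate 3 or without 2 week replicate 3, and with voom, 1 of the 8 lay below. Of the 41 genes, 24 h replicate 3 was the lowest of all libraries in 11, and 2 week replicates 2 and 4 the highest in 8 each. These counts were not taken over all genes.

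The 10 genes included the luminal carriers Slc6a20a (0.41 ± 0.15), Slc6a20b (0.18 ± 0.09) and Slc1a1 (0.24 ± 0.11), and also Slc38a6 (0.38 ± 0.14), Slc38a3 (0.63 ± 0.27), Slc6a4 (0.53 ± 0.20) and Slc1a5 (0.24 ± 0.11), with adjusted p by edgeR from 0.448 to 0.518. Slc1a2, the main glutamate carrier of astrocytes, read 2.54, 3.55, 3.32 and 3.21 CPM at 24 h and 5.67, 6.09, 2.96 and 4.84 at 2 weeks. Replicate 3 of 2 weeks alone overlapped (0.64 ± 0.20, adjusted p = 0.390, edgeR). Against 1 week it was higher by 0.49 ± 0.20 (adjusted p = 0.868).

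Slc6a6, the taurine carrier, read 303, 381, 235 and 306 CPM at 24 h and 352, 493, 323 and 578 at 2 weeks, with 24 h replicate 2 inside the 2 week range (0.51 ± 0.20, adjusted p = 0.450, edgeR). The sedentary libraries, 383, 361, 306 and 450 CPM, overlapped both groups. Slc6a6, Slc6a12 and Slc38a2 are carriers known to be induced by high tonicity, and at 24 h 2 of these 3 were above and 1 below the sedentary level.

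Slc6a12 varied most at 2 weeks. It read 1.18, 1.42, 0.842 and 0.464 CPM at 1 week and 0.145, 0.474, 1.10 and 0.256 at 2 weeks, with overlap through replicate 3 (-0.97 ± 0.43, adjusted p = 0.868, edgeR). Slc14a2, a urea carrier of the inner medulla, read 0.533, 9.22, 58.2 and 16.8 CPM in the same 2 week libraries, lowest in replicate 1 and highest in replicate 3 as Slc6a12 was. In the other 12 libraries Slc14a2 lay between 25.6 and 49.0 CPM. At 1 week both genes were highest in replicate 2 and lowest in replicate 4. At 24 h their means went opposite ways. That of Slc14a2 was 31.0 CPM against 43.2 in sedentary cortex, and that of Slc6a12 0.909 against 0.655. The part of medullary tissue in the Slc6a12 values was not tested.

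Genes that work with the carriers were read from lists. Of 6 tested partners (Cltrn, Slc16a10, Slc15a1, Slc15a2, Lrp2 and Cubn), 2 were above and 4 below the sedentary level at 24 h, and 0 had an unadjusted p under 0.05. Collectrin (Cltrn), which Slc6a19 and Slc6a18 need to reach the brush border, read 1656, 1735, 1730 and 1686 CPM in sedentary cortex and 1538, 1524, 1552 and 1338 at 2 weeks, with no overlap (-0.19 ± 0.10, adjusted p = 0.697, edgeR). A list of 7 proximal genes held 6 of ammonia production and acid-base transport (Glud1, Pck1, Slc25a10, Ogdh, Slc4a4 and Slc9a3) and the water channel Aqp1. At 24 h 5 of the 7 lay below the sedentary level, and at 2 weeks 0 did (median 0.03, beside 47.9% of all genes below), with Pck1 at 0.56 ± 0.18 (adjusted p = 0.429, edgeR). The 6 proximal tubule markers, Aqp1 among them, also lay above it at 2 weeks, 6 of 6 with a median of 0.085. Of 24 genes listed for amino acid sensing, which include Mtor and the subunits Rptor and Mlst8 of its complex, 1 at 24 h had an unadjusted p under 0.05, Sesn2 (-0.38 ± 0.16, adjusted p = 0.496).

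Over the 41 genes, the group mean was lowest at 24 h in 18, at 1 week in 14, in sedentary mice in 5 and at 2 weeks in 4. It was highest at 2 weeks in 22 and in sedentary mice in 10. The same counts were not taken over all genes, so they are not shown to be particular to the carriers. Several members overlap genes on the opposite strand within their exons, among them Slc1a1 (31.9% of its exon bases, with 4430402I18Rik), Slc6a9 (27.8%, Ccdc24), Slc3a1 (26.5%, Prepl) and Slc6a20b (21.1%, Sacm1l). Whether the counting used strand was not given in the sources used here, so reads of these partners could be included.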

How the data were processed

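The authors deposited raw, not normalized read counts, 1 row a gene. Per the submitters' processing notes, FastQC 0.10.1 and HTSeq 0.10.0 were used, with the build GRCm38 (mm10). Aligner, annotation and strand setting were not given in the sources used here. Of 24 count columns, 16 matched a sample by name and 8 matched none and were not used. Symbols, exon lengths and positions came from GENCODE M21 by Ensembl ID (52081 of 55414 IDs, holding 99.4% of counts).

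Genes were tested with edgeR 4.0.16 (R 4.3.3): filterByExpr by group (16126 genes kept, 43 of them members), TMM, robust quasi-likelihood F-test, all 16 libraries in 1 fit, two-sided, Benjamini-Hochberg adjustment over all genes, threshold 0.05. Values after ± are SD for levels and SE for log2 fold changes. Alternatives were DESeq2 size factors in edgeR, no filter, at least 1 CPM in 4 libraries, DESeq2 1.42.0, voom with quality weights in limma 3.58.1, only the groups compared, a replicate block, and each library left out. Counts of role lists below 0 were added after seeing the data. The script was tested on simulated data.

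Members of at least 1 CPM are named with their level. A fold change is given where the unadjusted p is under 0.05, and always against sedentary mice for Slc3a1, Slc7a9, Slc6a19, Slc3a2, Slc7a8 and Slc7a7. Cltrn, Asns and Slc14a2 are given as list genes. The members and lists were chosen with earlier results of these data known, and a few list genes and members are not reported here. Same-group libraries differed by more than sampling noise in every pair (chi-square over degrees of freedom of at least 8.36), so none was counted as a duplicate. Promoter sequences are from RefSeq, build GRCm38.p6.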

Additional observations from a re-analysis of the deposited data

Results flagged for a closer look

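Within each group of 4 libraries, a member was singled out when its highest or lowest library lay so far from the others that the gap exceeded 0.829 of the range. This happened in 7 of 164 combinations of member and group, and chance flags about 1 in 20, here 8.2. Slc7a9 at 24 h had replicate 1 at 117.4 CPM above the others. Slc3a1 had sedentary replicate 4 at 1143 CPM, above the next at 995.7. Slc1a5 had replicate 4 high at 1 week (25.98 CPM) and replicate 2 low at 2 weeks (19.25 CPM). Sedentary replicate 3 was high in Slc6a15 (19.36 CPM) and low in Slc6a9 (30.93 CPM). Slc36a4 had 2 week replicate 1 low at 4.943 CPM.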

How the results depend on the processing

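Depth did not limit the abundant carriers. The spread between libraries did, with a median standard error of 0.15 on the log2 scale for members. The number of members called was 0 in every comparison run under each alternative other than DESeq2 (fitting only the groups compared covers 6 of the 7), which called 1 at 24 h against sedentary mice and 1 over all 4 groups, Slc38a2 both times. Leaving out each library in turn gave 0 to 0. Over all genes, the calls for 24 h, 1 week and 2 weeks against sedentary, 1 week and 2 weeks against 24 h, 2 weeks against 1 week, and all 4 groups were 0, 0, 0, 0, 2, 0 and 2 by edgeR. They were 77, 14, 29, 55, 37, 4 and 160 by DESeq2, 59, 6, 7, 0, 4, 1 and 34 by voom, 0, 0, 5, 0, 11, 0 and 5 with the replicate number as a block, 9, 0, 5, 0, 8, 0 and 10 with no filter, and 0, 0, 0, 0, 4, 0 and 2 with at least 1 CPM in 4 libraries. With only the groups compared, the first 6 were 28, 0, 2, 0, 2 and 0. Another scaling shifted the median of all genes by at most 0.043 in size. With the replicate number as a block, 0 members were called. Of 24 pairs of same-numbered libraries, 8 deviated together with a correlation over 0.1 (from -0.239 to 0.375). These were 5 of the 6 pairs of number 3 (from 0.05 to 0.375) and 3 of the 6 of number 1, with 0 for numbers 2 and 4. Such correlations cannot exclude a pairing. The main fit had no block because the labels do not say what a replicate number shares. Of 16 libraries, 5 correlated best with their own number.

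Of the fold changes, those near 0 changed sign. Slc7a8 under voom was -0.11 at 24 h and -0.095 at 1 week. Slc3a2 at 1 week was 0.000133 with DESeq2 size factors and 0.000149 with DESeq2. Slc3a1 at 2 weeks was -0.00349 with at least 1 CPM in 4 libraries. The cause was not tested. With each library left out, Slc7a7 ranged from -0.189 to 0.0578 at 24 h. Slc7a8 ranged from -0.0797 to 0.116 at 24 h, from -0.0712 to 0.138 at 1 week and from -0.0728 to 0.366 at 2 weeks. Slc3a2 ranged from -0.0714 to 0.0639 at 1 week and from -0.167 to 0.0567 at 2 weeks, and Slc3a1 from -0.0405 to 0.0621 at 2 weeks. Fold changes with an unadjusted p under 0.05 kept their sign in all alternatives run; that of Slc7a12 at 2 weeks ranged from 0.532 to 1.25, and that of Slc6a12 between 1 and 2 weeks from -1.67 to -0.688. Of the 8 luminal genes, 7 to 8 lay below sedentary at 24 h with a library left out (7 without sedentary replicate 4 or 24 h replicate 1), 6 to 8 at 1 week and 3 to 6 at 2 weeks. Of the 7 basolateral genes, 5 lay below at 24 h without 24 h replicate 1.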
